A study of Danio rerio with 4 samples.

Results

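Brain RNA of female and male zebrafish at 4 months post-fertilization was compared in 4 libraries, which were all the libraries of the series: the wild-type female and the female atrn-/- mutant on one side, and the wild-type male and the male atrn-/- mutant on the other. The sex and genotype of each library were taken from its label. The mutants carry a CRISPR/Cas9 deletion in atrn, the gene of the transmembrane protein attractin, and the methods name a single mutant line for the sequencing. The study's text gives 3 brains per group in one place and a single brain in another, so how many fish each library holds was not settled here, and each of the 4 groups is 1 library. Female and male libraries were compared with genotype as a covariate, and then separately within the wild type and within the mutant, so that a difference could be read in each genotype. The p-values therefore measure only the spread between these 4 libraries, which leave 1 residual degree of freedom per gene.

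The brain is one of the main targets of sex hormones in fish. Testosterone is converted to estradiol in the brain itself by aromatase, which in zebrafish is encoded by cyp19a1b and made by radial glia, and both steroids act through nuclear receptors. Neurons of the hypothalamus and preoptic area release gonadotropin-releasing hormone, kisspeptin, oxytocin and galanin, peptides known for their roles in reproduction and social behaviour. Laboratory lines of zebrafish have no clear pair of sex chromosomes, so no Y-linked gene can serve to check a library's sex.

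The total count was 16100263 in the wild-type male, 16254750 in the mutant male, 8654693 in the wild-type female and 13116358 in the mutant female, so the wild-type female was the shallowest library. Of 31030 genes, 19943 averaged 10 counts or more per library and were kept, and levels are given as CPM, which scales a library's counts to a common total, after TMM scaling, with factors between 0.992 and 1.02. A gene was called when its adjusted p was under 0.05 in the quasi-likelihood test of edgeR, adjusted by Benjamini-Hochberg over all genes kept. The within-genotype log2 ratio of female over male used a prior count of 2, and its 95% interval, computed by the exact Clopper-Pearson method, covers counting error only. All 22 genes of the neuron list were kept and their summed counts were between 1.32% and 1.38% of each library, so the markers of brain tissue were present in all 4. The gonad genes could not check the sex labels: vtg1, the yolk precursor vitellogenin, had 0 counts in both males, 1 in the wild-type female and 0 in the mutant female, and amh, the hormone of the testis and ovary support cells, had 6, 5, 6 and 5 counts in the wild-type male, mutant male, wild-type female and mutant female. The targeted gene atrn had 50.6 CPM in the wild-type male and 28.7 CPM in the mutant male, against 75.5 CPM in the wild-type female and 32.3 CPM in the mutant female. In each sex the mutant library was lower. The log2 difference of atrn, female over male, was 0.38 (standard error 0.14, adjusted p = 0.644).

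The females and males differed in few genes by the test. In 19943 genes, 28 were called (0.140%), of which 20 were higher in the females (0.100%) and 8 were higher in the males (0.0401%). An unadjusted p under 0.05 was found in 1510 genes, 874 of them higher and 636 lower in the females. These numbers are the background of the counts at an unadjusted p that are given for the lists below. The 20 female-higher genes were mainly genes of fast skeletal muscle, and the 8 male-higher genes were oxt, which encodes the oxytocin precursor, 2 adult globin genes, a beta-tubulin gene and 4 genes known only by clone or locus names. In 27 of the 28 genes the difference had the same sign in both genotypes, and in 24 it was at least 2-fold in both. Of all 19943 genes kept, 5459 had a ratio above 0 in both genotypes and 5701 below 0 in both. At least 2-fold in both were 0.406% (female higher) and 0.532% (male higher). The residual of the fit is the disagreement between the genotypes, so a call favours genes that agree. The 27 and the 24 are therefore not separate evidence of agreement. In 25 of the 28, the 2 female libraries did not overlap with the 2 male libraries. The background of this last count was high, since both females were above both males in 18.6% of all genes kept and below them in 17.7%. The other 3 called genes, in which the sexes overlapped, were si:ch211-233m11.1, si:ch211-5k11.6 and LOC795591. The calls depended on the genotype term: with it left out and all 4 libraries in, 1 of the 28 was called. Fits on 3 libraries cannot hold the term, and of the 28 they called 1 without the wild-type male, 1 without the mutant male, 1 without the wild-type female and 22 without the mutant female.

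**Figure D1:**
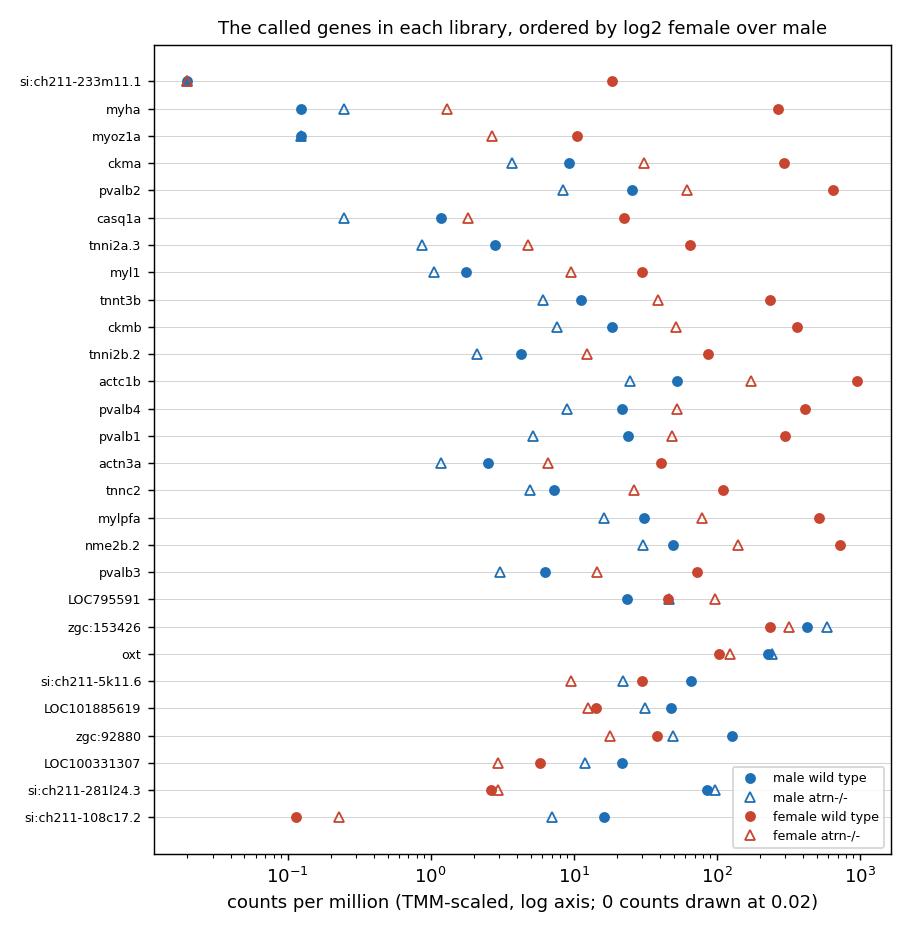
CPM (log axis) of the 28 called genes in each of the 4 libraries, with females in red, males in blue, wild types as filled circles and atrn-/- mutants as open triangles. The muscle genes at the top have their highest value in the wild-type female, followed by the mutant female, and the 8 genes at the bottom are higher in the male of each genotype.

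The gene with the lowest p was si:ch211-281l24.3, a gene whose best human match in the file is TRIM25, a ubiquitin ligase of antiviral signalling. It had 1365 counts in the wild-type male and 1561 in the mutant male, against 23 in the wild-type female and 39 in the mutant female. In CPM these were 85.5 and 97.0 in the males and 2.62 and 2.98 in the females, so both males were far above both females and the 2 libraries of each sex lay close together. The log2 difference, female over male, was -5.02 (standard error 0.16, adjusted p = 0.000133). The log2 ratio of si:ch211-281l24.3 was -4.95 (95% interval -5.69 to -4.43) within the wild type and -4.96 (95% interval -5.52 to -4.57) in the mutant. It was the one gene of the 28 that was also called in all 11 alternative fits, with adjusted p-values up to 0.0163. The gene kcnj13, a potassium channel gene separated from it by 2 coding genes in the RefSeq gene order, was 2-fold higher in the males in both genotypes, with 8.83 and 8.51 CPM in the wild-type and mutant males and 1.82 and 2.67 CPM in the females, but kcnj13 was not called (adjusted p = 0.169). It was named after its values had been seen.

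Another clone-named gene, si:ch211-108c17.2, had 260 counts in the wild-type male, 113 in the mutant male, 1 in the wild-type female and 3 in the mutant female. Both males were again above both females, and the females were close to the detection limit. The log2 difference of si:ch211-108c17.2 was -5.78 (standard error 0.49, adjusted p = 0.0226), with a within-genotype log2 ratio for the wild type of -5.97 (95% interval -12.47 to -4.67) and in the mutant of -4.25 (95% interval -7.24 to -3.35). The gene LOC100331307 had 21.9 and 11.9 CPM in the wild-type and mutant males and 5.82 and 2.98 CPM in the females, a log2 difference of -1.95 (standard error 0.22, adjusted p = 0.0351). The gene LOC101885619 had 47.9 and 31.6 CPM in the males and 14.4 and 12.6 CPM in the females, a log2 difference of -1.53 (standard error 0.17, adjusted p = 0.0351). In these 2 genes the sexes did not overlap, and the mutant was below the wild type in each sex. Neither gene has a described function in the file.

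Oxytocin was the one hypothalamic peptide that passed the test. The oxt gene had 3630 counts in the wild-type male, 3901 in the mutant male, 911 in the wild-type female and 1608 in the mutant female. In CPM these were 227 and 242 in the males and 104 and 123 in the females. The 2 males differed little from each other, as did the 2 females, and the sexes did not overlap. The log2 difference of oxt was -1.05 (standard error 0.11, adjusted p = 0.0295), with -1.13 (95% interval -1.24 to -1.02) within the wild type and -0.98 (95% interval -1.06 to -0.90) in the mutant. With the genotype term left out oxt was not called (adjusted p = 0.656), nor when the wild-type male (adjusted p = 1.00), the mutant male (0.830) or the wild-type female (0.177) was left out as well. Over the 11 alternatives its log2 difference stayed between -1.17 and -0.94, and it passed the threshold in 7. In whole-brain RNA, a lower level in one sex can come from fewer cells that make a transcript or from less RNA per cell, and these cannot be told apart.

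Of the 42 neuropeptide genes listed, 35 were kept. Of these, oxt was higher in the males by the test and 34 did not pass it, and the median log2 difference of the list was -0.12 against -0.01 over all genes kept. At an unadjusted p under 0.05 there were 6 genes lower in the females and 1 higher. Over all 19943 genes kept these numbers were 636 and 874. The adjusted p of galn, which encodes galanin, a peptide of the preoptic area, was 0.299. It had 49.7 and 51.7 CPM in the males and 25.4 and 34.9 CPM in the females, so galn showed no overlap between the sexes and a log2 difference of -0.76 (standard error 0.15). Over all genes kept, both males were above both females in 17.7%. The relative of oxytocin, avp, which encodes vasotocin, had 6.14, 6.89, 5.82 and 6.34 CPM in the wild-type male, mutant male, wild-type female and mutant female, and its log2 difference was -0.10 (standard error 0.25, adjusted p = 0.936). The genes sst3, a somatostatin gene, and adcyap1b, a PACAP gene, had log2 differences of -0.22 and -0.27 and were not called. The hormone precursor gene pmchl, one of the 2 melanin-concentrating hormone genes of zebrafish, had 20.0 and 8.26 CPM in the wild-type and mutant males and 10.4 and 23.5 CPM in the females, so the log2 ratio of pmchl was -0.94 within the wild type and 1.49 in the mutant. The genes galn and pmchl were named after their values had been seen, and avp was named as the relative of oxt.

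**Figure D2:**
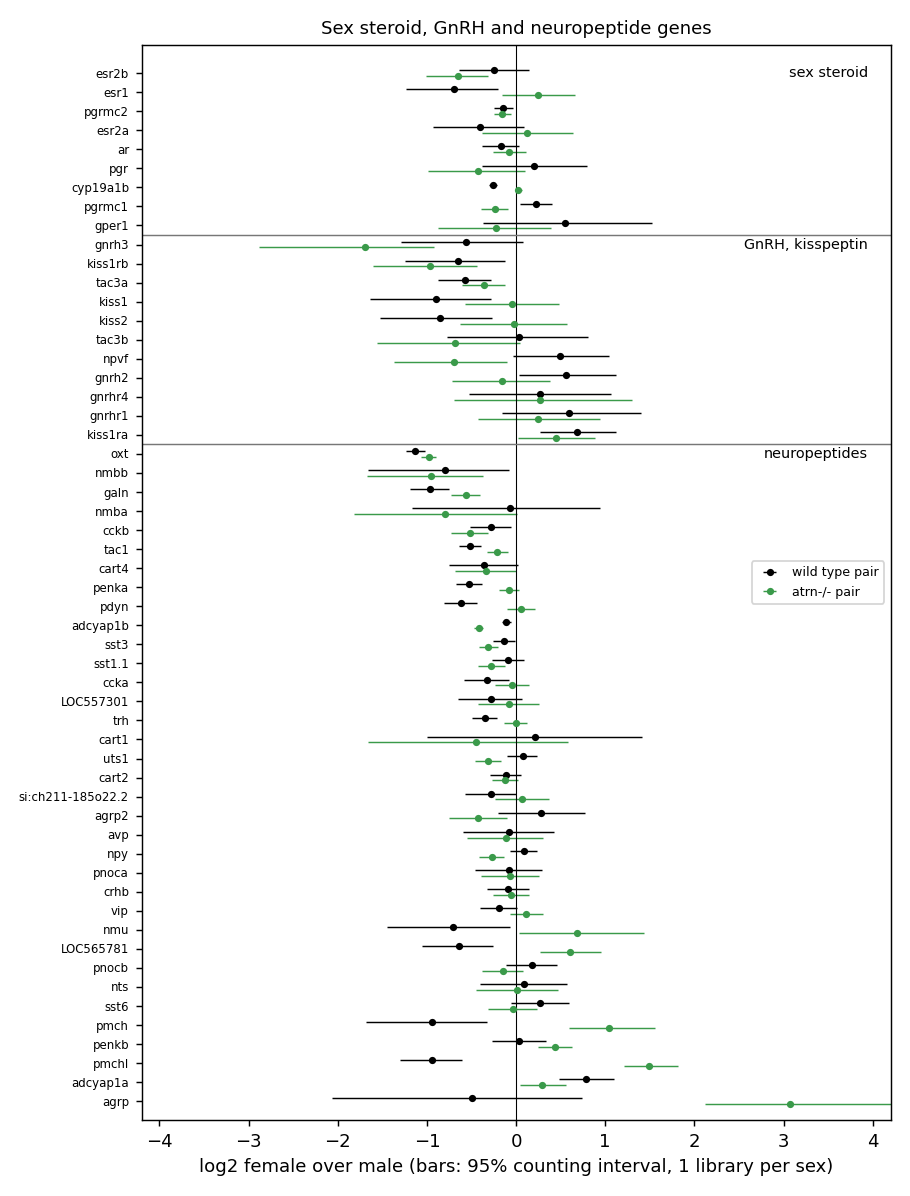
Log2 ratio of female over male within the wild type (black) and within the atrn-/- mutant (green) for the kept genes of the sex steroid, GnRH and neuropeptide lists, with 95% counting intervals of 1 library per sex. The 2 ratios of oxt are at -1.13 and -0.98 with narrow intervals, the 2 ratios of pmchl are at -0.94 and 1.49, and the interval of agrp in the mutant runs past the right edge.

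The genes that make and sense sex steroids were not called. Of 10 listed receptor and aromatase genes, 9 were kept; none was called, none had an unadjusted p under 0.05, and the median log2 difference was -0.12. Brain aromatase, cyp19a1b, had 807 and 749 CPM in the wild-type and mutant males and 675 and 761 CPM in the females, and the sexes overlapped (log2 difference -0.12, standard error 0.11, adjusted p = 0.812). The androgen receptor gene ar had 36.3 and 34.3 CPM in the males and 32.2 and 32.5 CPM in the females, a log2 difference of -0.12 (standard error 0.14, adjusted p = 0.839). For ar the males were above the females by less than the test could resolve.

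The 3 estrogen receptor genes had log2 differences below 0 and were not called, but in esr1 and esr2a the sign differed between the genotypes. The log2 difference of esr1 was -0.20 (standard error 0.30). Its log2 ratio was -0.69 (95% interval -1.24 to -0.21) within the wild type and 0.25 (95% interval -0.15 to 0.67) in the mutant. The log2 ratio of esr2a was -0.40 within the wild type and 0.12 in the mutant. The log2 difference of esr2a was -0.14 (standard error 0.29) and that of esr2b was -0.46 (standard error 0.22, adjusted p = 0.691), and esr2b was lower in the females in both genotypes. The progesterone receptor gene pgr had 4.13 and 4.97 CPM in the males and 4.79 and 3.67 CPM in the females. The membrane progesterone receptor component genes pgrmc1 and pgrmc2 had log2 differences of -0.01 and -0.15.

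Of 21 listed genes of steroid hormone synthesis, 13 were kept and none was called; 2 had an unadjusted p under 0.05, both lower in the females, and the median log2 difference was -0.22. These 2 were srd5a2a and srd5a2b, which encode 5-alpha-reductases, the enzymes that reduce testosterone to dihydrotestosterone. The gene srd5a2a had 21 and 22 counts in the wild-type and mutant males and 5 and 4 counts in the females, and its log2 ratio was -1.03 (95% interval -2.97 to 0.24) within the wild type and -1.74 (95% interval -4.16 to -0.60) in the mutant. It was the one gene of the list that was 2-fold lower in the females in both genotypes, on few counts. The gene srd5a2b, picked with its values in view, had a log2 difference of -0.60 (adjusted p = 0.648). Among the most abundant genes of the list, the log2 difference was -0.61 for hsd17b3, an enzyme of the last step of testosterone synthesis, -0.21 for fdx1, the electron carrier of mitochondrial steroid enzymes, and 0.04 for hsd11b2, which inactivates cortisol. None of these 3 passed the test. The log2 ratio of hsd17b3 was -0.03 within the wild type and -1.18 in the mutant, so its difference was seen in the mutant pair only.

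Of 15 listed genes of GnRH, kisspeptin and tachykinin 3, 11 were kept and none was called, while 4 had an unadjusted p under 0.05, and the median log2 difference was -0.35. The median of the within-genotype log2 ratios was nearer 0, at 0.03 within the wild type and -0.16 in the mutant. The gene gnrh3, which encodes the hypophysiotropic GnRH of zebrafish, had 71 counts in the wild-type male, 53 in the mutant male, 26 in the wild-type female and 12 in the mutant female. Both females were below both males in CPM as well, at 2.96 and 0.917 against 4.45 and 3.29, with a log2 difference of -1.15 (standard error 0.45, adjusted p = 0.645). The same order of the sexes was found in 17.7% of all genes kept. The second GnRH gene, gnrh2, had a log2 difference of 0.20 (standard error 0.33, adjusted p = 0.893). The kisspeptin gene kiss2 had a log2 ratio of -0.85 within the wild type and -0.02 in the mutant.

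The 2 kisspeptin receptor genes differed in sign. The log2 difference was -0.83 (standard error 0.30, adjusted p = 0.621) for kiss1rb and 0.58 (standard error 0.24, adjusted p = 0.657) for kiss1ra. The tachykinin gene tac3a, which encodes neurokinin B in zebrafish, had 22.3 and 23.2 CPM in the males and 14.9 and 17.9 CPM in the females, a log2 difference of -0.47 (standard error 0.17, adjusted p = 0.625). In each of kiss1rb, kiss1ra and tac3a the 2 females lay on one side of the 2 males, and none of them was called. Such a separation was common, since both females were above both males in 18.6% of all genes kept and below them in 17.7%. The pituitary hormone genes were near 0: lhb, the beta subunit of luteinizing hormone, had 4, 5, 3 and 2 counts in the wild-type male, mutant male, wild-type female and mutant female, fshb had 1, 5, 0 and 3, and cga, the shared alpha subunit, had 1, 4, 1 and 0. These genes were not kept, so gonadotropins could not be compared between the sexes. Of 15 listed pituitary genes 3 were kept, none was called, and the log2 difference was -0.18 for pomca, -0.21 for pomcb and 1.37 for ghrhra.

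Monoamine and thyroid hormone genes gave no calls. All 15 monoamine genes were kept, none had an unadjusted p under 0.05, and the median log2 difference was 0.21, with 0.02 for th, the rate-limiting enzyme of dopamine synthesis, 0.11 for slc6a4a, a serotonin transporter, and 0.14 for mao, the monoamine oxidase. All 10 thyroid hormone genes were kept, and 3 had an unadjusted p under 0.05, each lower in the females. The gene dio2, which encodes the deiodinase that activates thyroid hormone, had 140 and 206 CPM in the wild-type and mutant males and 105 and 116 CPM in the females, a log2 difference of -0.62 (standard error 0.13, adjusted p = 0.361). The receptor gene thrb had a log2 difference of -0.26 and thrab one of 0.04. The inactivating deiodinase gene dio3b, picked with its values in view, had a log2 difference of -0.52 (adjusted p = 0.596).

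Genes of skeletal muscle made up most of the female-higher calls. Of the 39 listed muscle genes, 34 were kept, 14 were called and all 14 were higher in the females, and the median log2 difference was 2.67 against -0.01 over all genes kept. Another 3 called genes, tnni2a.3, tnni2b.2 and myoz1a, are sarcomere genes outside the list. With the list and these genes set aside, 3 of the 20 female-higher calls were left. Of the 34 kept, 21 were at least 2-fold higher in the females in both genotypes, and in 27 both females were above both males. The wild-type female was the highest library in 32 of the 34. The list median was 3.61 within the wild type and 1.86 in the mutant, so the difference was larger within the wild type.

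Actin and myosin genes were among those called. The thin filament actin gene actc1b had 52.4 CPM in the wild-type male, 24.9 in the mutant male, 955 in the wild-type female and 173 in the mutant female, a log2 difference of 3.52 (standard error 0.31, adjusted p = 0.0228). The light chain gene myl1 had 1.75, 1.06, 30.2 and 9.55 CPM in the same order, a log2 difference of 3.70 (standard error 0.30, adjusted p = 0.0226). In both genes the wild-type female was the highest library and the mutant female the next, above both males.

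The myosin heavy chain gene myha had 2 counts in the wild-type male, 4 in the mutant male, 2359 in the wild-type female and 17 in the mutant female, so nearly all of its reads were in a single library (log2 difference 9.27, standard error 0.91, adjusted p = 0.0295). Its log2 ratio was 9.94 (95% interval 9.21 to 14.12) within the wild type and 1.87 (95% interval 0.77 to 4.42) in the mutant. Its neighbour myhc4, another fast myosin heavy chain gene, had 127, 60, 8990 and 425 counts in the same order and was not called (log2 difference 5.60, adjusted p = 0.117). Whether reads of these related myosin genes were divided between them by the counting was not tested.

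Troponin, calsequestrin and creatine kinase genes were called too. The log2 difference was 3.62 for tnnt3b and 3.22 for tnnc2, which encode fast troponins T and C, 3.21 for the light chain mylpfa, 3.41 for the cross-linker actn3a and 3.87 for casq1a, which encodes the calcium store protein calsequestrin. The muscle creatine kinases ckma and ckmb had log2 differences of 4.21 and 3.62. In each of these 7 genes both females were above both males. Another 6 muscle genes were at least 2-fold higher in the females in both genotypes and were not called, with log2 differences of 1.81 for acta1b, 3.08 for mylz3, 2.42 for atp2a1, 2.82 for mybpc2b, 2.53 for ldb3b and 2.19 for pgam2.

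The 4 parvalbumin genes of muscle, which encode calcium buffers of fast fibres, were all called. The gene pvalb1 had 24.1 CPM in the wild-type male, 5.16 in the mutant male, 301 in the wild-type female and 48.9 in the mutant female, a log2 difference of 3.48 (standard error 0.15, adjusted p = 0.000496), and its log2 ratios within the wild type and the mutant were 3.63 and 3.21. The log2 difference was 3.88 for pvalb2, 2.98 for pvalb3 and 3.48 for pvalb4. In the RefSeq gene order, pvalb1 lies next to pvalb4 and pvalb2 next to pvalb3. The parvalbumins are close relatives, and reads shared between them could not be traced.

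Of the female-higher calls outside the list, 4 were higher in the female of each genotype with the wild-type female highest. The log2 difference was 5.49 for myoz1a, which encodes a Z-disc protein and had 2, 2, 92 and 35 counts in the wild-type male, mutant male, wild-type female and mutant female. Its log2 ratio was 5.28 (95% interval 4.49 to 9.46) within the wild type and 3.37 (95% interval 2.47 to 7.53) in the mutant. The fast troponin I genes tnni2a.3 and tnni2b.2 had log2 differences of 3.86 and 3.61, and nme2b.2, a nucleoside diphosphate kinase gene, had one of 3.07 with 49.2, 30.5, 721 and 142 CPM in that order. The last 3 were beyond the 12 female-higher calls of lowest p and were picked with their values in view.

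The summed counts of the muscle list were 0.0395% of the wild-type male, 0.0243% of the mutant male, 0.641% of the wild-type female and 0.0847% of the mutant female. Muscle is not part of the brain, and the part that tissue carried over at dissection may have in these differences was not tested. In the mutant pair, which holds neither wild-type library, 21 of the 34 kept muscle genes were at least 2-fold higher in the female, against 31 in the wild-type pair. The muscle calls depended on the genotype term, since no female-higher gene was called without it and with all 4 libraries in, while 60 were called when the mutant female was also left out.

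**Figure D3:**
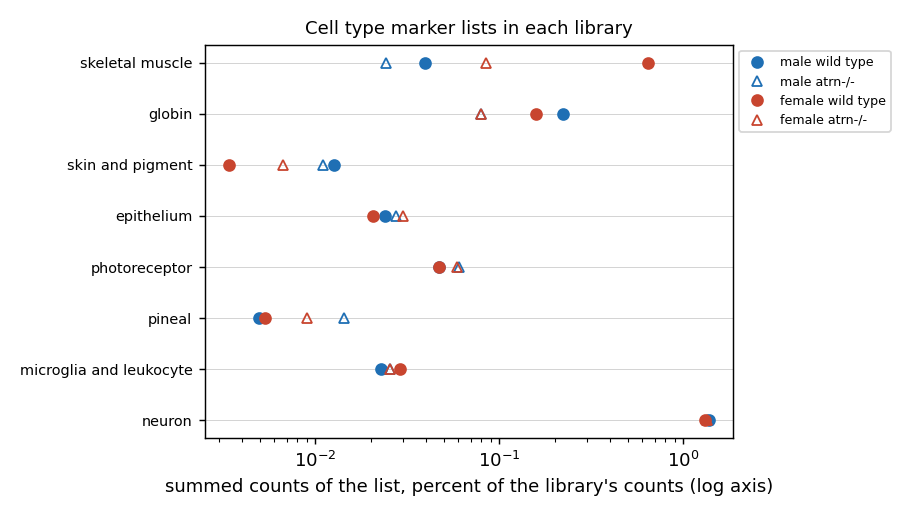
Summed counts of 8 cell type lists as a percentage of each library's counts (log axis), with females in red, males in blue, wild types as filled circles and atrn-/- mutants as open triangles. The muscle list is at 0.641% in the wild-type female and at 0.0847% or less in the other libraries, while the neuron list stays between 1.32% and 1.38%.

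Only 3 female-higher calls were left when the muscle list and the 3 sarcomere genes were set aside. One was nme2b.2, described above, in which the wild-type female was the highest library and the mutant female the next, as in actc1b. The second, LOC795591, is named si:ch211-114n24.6 in RefSeq, has the alpha-tubulin gene TUBA1A as its best human match, and had 23.6 CPM in the wild-type male, 46.6 in the mutant male, 45.7 in the wild-type female and 97.2 in the mutant female. Within each genotype the female was about double the male (log2 difference 1.01, standard error 0.12, adjusted p = 0.0486), but the sexes overlapped because the mutants were higher than the wild types. It was named after its values had been seen. The third, si:ch211-233m11.1, whose best human match is NLRC3, had 163 counts in the wild-type female and 0 in each of the other libraries. In the wild type it was at least 98.9-fold higher in the female, against a floor of 3 counts per library, and in the mutant there was nothing to compare, so its call rests on 1 library and it is not a difference seen in both genotypes.

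Tubulin and globin genes were among the male-higher calls. The gene zgc:153426, named tubb4bl in RefSeq and encoding a beta-tubulin, had 429 CPM in the wild-type male, 585 in the mutant male, 236 in the wild-type female and 319 in the mutant female. The log2 difference of zgc:153426 was -0.87 (standard error 0.10, adjusted p = 0.0351), with -0.86 within the wild type and -0.88 in the mutant. Both males were above both females, and the mutant was above the wild type in each sex.

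The globin gene zgc:92880, which is hbba2 in RefSeq, had 2044 and 794 counts in the wild-type and mutant males and 334 and 236 counts in the females, with no overlap in CPM, a log2 difference of -1.60 (standard error 0.14, adjusted p = 0.0226). Next to it in the RefSeq gene order lies si:ch211-5k11.6, which is hbaa2, with 66.2 and 22.2 CPM in the males and 29.9 and 9.62 CPM in the females, a log2 difference of -1.17 (standard error 0.14, adjusted p = 0.0486). In si:ch211-5k11.6 the wild-type female was above the mutant male, so the sexes overlapped. The other 3 kept globin genes were not called, with log2 differences of -0.29 for hbaa1 and -0.16 for ba1. The highest log2 difference among the 5 kept was -0.03. The globin list, made after the first 2 genes had been seen, had 2 called of 5 kept. Of 22 listed blood genes, these 2 were the called ones among 14 kept, and the median log2 difference was -0.08. The summed globin counts were 0.221% of the wild-type male, 0.0801% of the mutant male, 0.159% of the wild-type female and 0.0796% of the mutant female, and the part of blood content in the calls was not tested. Whether reads of the globin genes were divided between copies was not tested either.

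Genes of skin and other epithelia did not pass the test. In the skin and pigment list, 12 of 19 listed genes were kept, none was called, 5 had an unadjusted p under 0.05, all of them lower in the females, and the median log2 difference was -0.60. The log2 difference was -1.38 for krt5, -1.14 for krt4 and -1.81 for krt91, the keratin genes with the most counts in this list. The gene krt17 had 31 and 49 counts in the wild-type and mutant males and 1 and 7 counts in the females, and krt1-19d had 26 and 14 counts in the males and 0 and 3 counts in the females. Both were at least 2-fold lower in the females in both genotypes.

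An epithelial list, made after krt17, muc5b, cdh1 and cers3b had been seen, gave 18 kept of 33 listed, none called, 7 with an unadjusted p under 0.05 and a median log2 difference of -0.96. The most abundant of its genes did not follow this median: krt8 had a log2 difference of 0.09, krt18 of 0.21 and krt94 of -0.07. In the genes that were 2-fold lower in both genotypes the counts were lower. The mucin gene muc5b had 33 and 29 counts in the wild-type and mutant males and 0 and 2 counts in the females, and cdh1, which encodes E-cadherin, had 18 and 20 counts in the males and 1 and 3 in the females. The other 4 were krt97, anxa1b, cers3b and tgm1l4, with log2 differences of -2.33, -1.46, -2.74 and -1.19. The summed skin list was 0.0126% and 0.0110% of the male libraries and 0.00340% and 0.00665% of the female libraries, but the summed epithelial list did not separate the sexes, with 0.0241% and 0.0276% of the male libraries and 0.0206% and 0.0298% of the female libraries. The part of carried-over skin was not tested.

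None of the light-sensing genes was called. Of 36 listed photoreceptor genes, 18 were kept, and the median log2 ratio was 0.02 within the wild type and -0.93 in the mutant. By the ratio with a prior count of 2, the cone genes arr3a and grk7a were 2-fold lower in the females in both genotypes. The gene arr3a had 14 and 156 counts in the wild-type and mutant males and 1 and 58 in the females, and grk7a had 5, 39, 0 and 13 in the same order. Against a floor of 3 counts per library, grk7a within the wild type was only at least 1.09-fold lower in the female, so its 2-fold value there comes from the prior count. In both genes the mutant male was the highest library, and the order of the libraries followed genotype as well as sex. The log2 difference was 0.02 for gnb1b, -0.22 for gnat1 and -0.46 for gngt1.

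Of 11 listed pineal genes, 8 were kept and none was called. The gene exorh, the pineal opsin, had a log2 difference of -0.64, asmt2, an enzyme of melatonin synthesis, one of -0.11, and tph1a, which encodes tryptophan hydroxylase, one of 0.23. The gene valopa, which encodes a deep-brain opsin, was the one member that was 2-fold higher in the females in both genotypes, with 1.88 and 2.05 CPM in the wild-type and mutant males and 6.04 and 5.27 CPM in the females. For valopa the 2 libraries of each sex were close, but it was not called (log2 difference 1.52, standard error 0.34, adjusted p = 0.399). It was picked as 2-fold higher in both genotypes, so both females lying above both males follows largely from that choice.

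Cell types of the brain itself gave no calls. None of the kept genes of the neuron, radial glia, myelin and microglia lists was called. The median log2 difference was -0.03 for 22 neuron genes, -0.02 for 15 radial glia and astroglia genes, 0.19 for 10 myelin genes and 0.42 for 13 microglia and leukocyte genes. The median differed in sign between the genotypes for myelin (0.43 within the wild type and -0.03 in the mutant) and neuron genes (0.04 and -0.10). The neuron genes snap25a, syt1a and gad2 had log2 differences of -0.02, -0.12 and 0.14, the glial genes s100b, slc1a2b and glula had -0.21, -0.08 and -0.29, and the myelin genes mbpa, mpz and plp1b had 0.20, 0.29 and 0.17. At an unadjusted p under 0.05, the neuron list had 1 gene higher and 3 lower in the females, and the radial glia and myelin lists had 0. In the microglia list, apoeb, hexa and ptprc had log2 differences of -0.01, -0.11 and 0.17, and 3 genes had an unadjusted p under 0.05, all higher in the females. One of them, csf1ra, the receptor that microglia need to survive, had 84, 81, 114 and 124 counts in the wild-type male, mutant male, wild-type female and mutant female (log2 difference 1.11). It was chosen after its values were seen.

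The germ cell lists were mostly below the filter. Of 28 listed yolk, egg coat and oocyte genes 3 were kept, with log2 differences of -0.27 for vtg3, -0.61 for zp3b and 1.55 for nobox. Of 19 testis and germ cell genes 6 were kept and none was called, with -0.26 for tekt1, -0.43 for tdrd6 and 0.27 for tdrd9. The gene piwil1, which silences transposons in germ cells, had 29 and 27 counts in the wild-type and mutant males and 4 and 10 counts in the females. It was 2-fold lower in the females in both genotypes, with a log2 difference of -1.49 (standard error 0.60, adjusted p = 0.645).

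**Figure D4:**
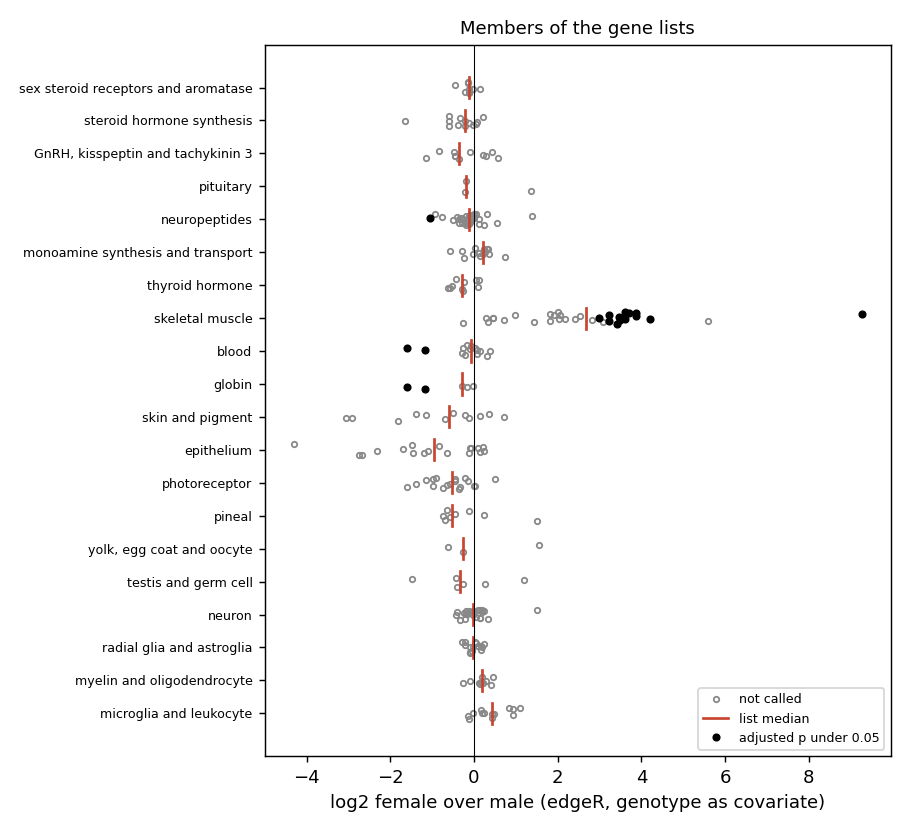
Log2 difference of female over male for the kept genes of 20 lists, from the edgeR fit with genotype as a covariate; filled points have an adjusted p under 0.05 and the red line is the list median. The muscle list has its median at 2.67 and 14 filled points, while the other lists have medians between -0.96 and 0.42 and at most 2 filled points.

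The remaining lists gave no calls in either sex. They were cholesterol synthesis (23 kept, median -0.10), glucocorticoid response (14 kept, 0.12), immediate early genes (23 kept, -0.03), circadian clock (33 kept, 0.03), heat shock (19 kept, -0.05), cell cycle (22 kept, -0.16), liver and plasma proteins (7 kept, -0.13) and cartilage, bone and meninges (14 kept, 0.40). At an unadjusted p under 0.05, 6 circadian clock genes were higher in the females and none was lower. In the cartilage, bone and meninges list 4 were higher and 1 was lower. The numbers higher and lower were 2 and 0 for glucocorticoid response, 2 and 2 for immediate early genes and 0 and 2 for liver and plasma proteins. For cholesterol synthesis and for heat shock they were 0 and 1, and for cell cycle 0 and 0. The interferon list had 21 kept and a median of -0.81, with 0.20 within the wild type and -0.998 in the mutant, so its sign differed between the genotypes. The median also differed in sign for cartilage, bone and meninges (0.77 within the wild type and -0.12 in the mutant) and cholesterol synthesis (0.07 and -0.27). It did so too, at smaller values, for heat shock (0.03 and -0.12), immediate early genes (0.005 and -0.09) and MHC and antigen processing (-0.25 and 0.002). The list of MHC and antigen processing had 27 kept and a median of -0.14. At an unadjusted p under 0.05, 4 of its genes were higher and 3 were lower in the females. None of its genes was 2-fold higher in the females in both genotypes, and 2 were 2-fold lower. These were LOC100002203, which is mhc1haa in RefSeq, with 104, 261, 19 and 77 counts in the wild-type male, mutant male, wild-type female and mutant female, and the gene that RefSeq names mhc2dgb, with 80, 107, 0 and 41. They were named after their values had been seen. No gene of the mitochondrial genome had counts in the table.

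The agreement between the genotypes was then described for all genes. At least 2-fold in both genotypes, 81 genes were higher in the females (0.406%) and 106 were higher in the males (0.532%), while 105 genes differed at least 2-fold in opposite directions (0.527%). Of these 105, 66 were higher in the wild-type female and lower in the mutant female, and 39 the reverse. In the wild-type pair alone 731 genes were 2-fold higher and 614 were 2-fold lower in the female, and in the mutant pair alone the numbers were 370 and 610. Across the 19943 genes, Pearson's r between the log2 ratios of the 2 genotypes was 0.149 and Spearman's rho was 0.147. The 2 ratios share no library, but genes are not independent replicates.

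**Figure D5:**
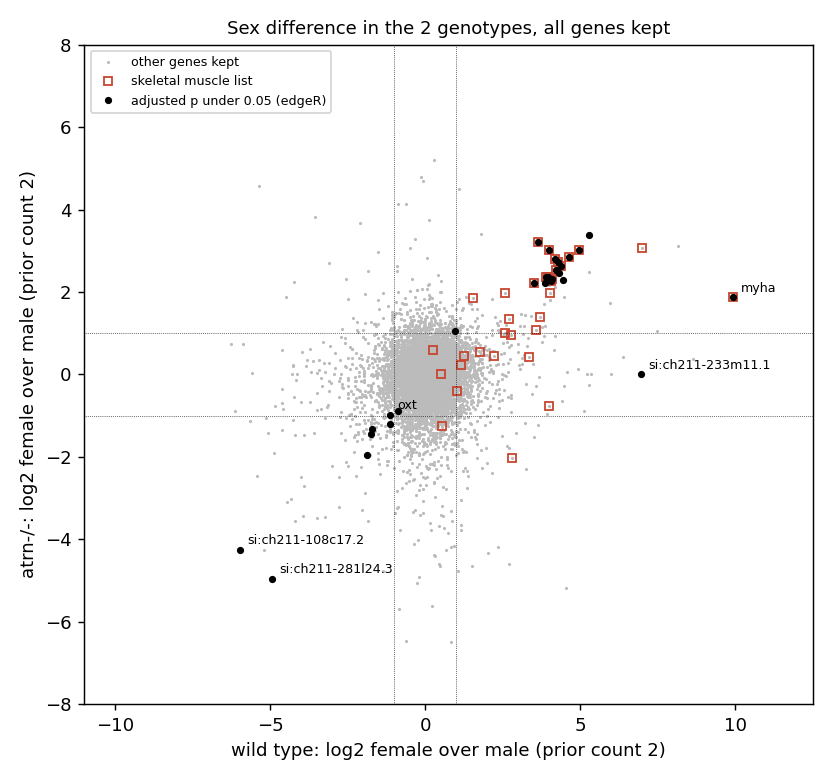
Log2 ratio of female over male within the wild type (horizontal axis) and in the atrn-/- mutant (vertical axis) for the 19943 genes kept, with dotted lines at 2-fold, red squares for the muscle list and black points for the 28 called genes. Most called genes lie in the upper right with the muscle list, and si:ch211-281l24.3 stands near -5 on both axes.

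The genes that agreed were mostly of low count. The median of the mean count was 37.0 for the 81 female-higher genes and 21.6 for the 106 male-higher genes, both below the median of all genes kept. The filter took raw counts, to which the deeper male libraries add more, and the part of this in the 81 and 106 was not tested. In the female-higher set 21 of 81 were in the muscle list. The other 60 still hold muscle genes that the list does not name, among them myoz1a, tnni2a.3, tnni2b.2, atp2a1l, casq1b, ckmt2b, mybpha and myom2, so they are not a set free of muscle. Genes deposited under a clone or locus name were 71.7% of the male-higher set and 35.8% of the female-higher set, against 30.2% of all genes kept. Some of these have a gene name in RefSeq, such as zgc:92880, which is hbba2. Zinc finger protein genes were 6.60% and 7.41% of the 2 sets, against 2.90% of all genes. Of 191 genes that were called or 2-fold in both genotypes, 132 could be placed in the RefSeq gene order. In that order 8 pairs lay with at most 2 coding genes between them, and 7 of these pairs differed in the same direction. Among the 7 were pairs of related genes: pvalb3 and pvalb2, pvalb4 and pvalb1, myhc4 and myha, the 2 globin genes, and cyp8b2 and cyp8b3. How many such pairs would be found among other genes was not computed.

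The female-higher gene f13a1a.1, one copy of the gene of coagulation factor XIII A, had 0 counts in the wild-type male, 26 in the mutant male, 372 in the wild-type female and 198 in the mutant female. In the wild type it was at least 226-fold higher in the female, against a floor of 3 counts per library, and in the mutant its log2 ratio was 3.11 (95% interval 2.63 to 3.88). The gene f13a1a.1 was picked for its ratios in both genotypes, so both females lying above both males follows largely from that choice. It was not called (adjusted p = 0.257).

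Most of the largest male-higher differences were in genes at or near 0 in the females. The filter took the mean raw count over the 4 libraries, and the male libraries were deeper. Such genes could therefore be kept through their male counts alone. The gene LOC100149817, described as a zinc finger protein gene, had 84 counts in the wild-type male, 43 in the mutant male and 0 in both females, so it was at least 15.4-fold lower in the female within the wild type and at least 11.7-fold lower in the mutant, against a floor of 3 counts per library. The taste receptor gene tas2r200.1 had 45 and 17 counts in the males and 0 in both females. The gene abcb5, which encodes a membrane transporter, had 90 and 60 counts in the males and 1 and 4 in the females, with a log2 ratio of -4.46 (95% interval -10.95 to -3.11) within the wild type and -3.09 (95% interval -5.53 to -2.18) in the mutant. These genes were picked for large male-higher ratios in both genotypes, so both males lying above both females follows largely from that choice. None was called, with adjusted p-values of 0.0867 for LOC100149817, 0.275 for tas2r200.1 and 0.099 for abcb5.

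The gene cyp8b3, a cytochrome P450 gene of a family that makes bile acids in mammals, had 34 and 50 counts in the wild-type and mutant males and 0 and 2 in the females. The gene ftr01, of the fish-specific finTRIM family, had 14 and 31 counts in the males and 0 and 1 in the females. The uncharacterized genes LOC100538042, LOC103911520 and LOC101883188 had 41 and 40, 106 and 38, and 20 and 51 counts in the males, and 0 and 1, 4 and 1, and 0 and 2 counts in the females. None of these 5 was called. They were picked for large male-higher ratios in both genotypes, so both males lying above both females is not separate evidence. Over all genes kept, both males were above both females in 17.7%. A neighbour of cyp8b3, cyp8b2, chosen after its values were seen, had 19 and 33 counts in the males and 3 and 8 in the females.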

How the data were processed

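Total RNA of brains was extracted with Trizol, and libraries were made with the TruSeq kit. The authors deposited whole-number counts of reads per gene, not normalized, for 31030 genes in 4 libraries. The submitters' processing notes name HISAT2 and the build GRCz10, while the paper's methods name MapSplice, RPKM and EB-Seq, none of which was rerun; the counting program, annotation and strand setting are not given in the sources used here, so overlapping and antisense genes could not be separated.

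From the deposited counts, the 19943 genes averaging 10 counts or more per library were used. Total counts were between 8654693 and 16254750. The main test was edgeR 4.0.16 (R 4.3.3), glmQLFit and glmQLFTest with TMM factors and the terms genotype and sex, Benjamini-Hochberg adjusted, with a prior of 6.18 degrees of freedom beside 1 residual one. The standard error was taken as the log2 difference over the square root of F. The script was tested on simulated data. Within a genotype, log2 ratios used a prior count of 2 and Clopper-Pearson 95% intervals; floors are 3 counts, and both cover counting error only. The comparison of the sexes with genotype as a covariate is not in the paper.

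The members and lists were chosen with earlier results of these data known. Named genes were 14 pinned genes (atrn, cyp19a1b, the estrogen, androgen and progesterone receptors, gnrh2, gnrh3, kiss2, lhb, fshb, cga and vtg1), up to 12 called genes in each direction by lowest p, the 10 in each direction with the largest smaller ratio among genes 2-fold in both genotypes, and, of each list described, the called members, those 2-fold in both and the 3 with the most counts. Of the 31 lists, the epithelium and globin lists were added after values had been seen. List genes were matched by symbol or, for 18065 of the 19943 genes, through a RefSeq table of GRCz12tu, used for names and neighbours only. Alternatives were DESeq2 1.42.0 size factors and its Wald test, total counts, other filters, priors and thresholds, a robust fit, no genotype term, and leaving out each library. A comparison of promoter motifs was planned and not run. Python 3.11.15 with pandas 2.3.3 was used for the lists.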

Additional observations from a re-analysis of the deposited data

Results flagged for a closer look

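In 12 of the named genes the 2 genotypes had opposite signs, with both counting intervals away from 0. The difference between the genotypes was not tested, since each ratio rests on 1 library per sex. The log2 ratio of female over male was 1.68 within the wild type and -1.12 within the mutant for gnat1, a rod transducin gene, and 1.29 and -1.33 for gngt1, its partner subunit. For hsd11b2 it was 0.91 and -0.73, and for pmchl, a melanin-concentrating hormone gene, it was -0.94 and 1.49. For 3 myelin genes it was 0.41 and -0.0136 (mbpa), 0.63 and -0.0571 (mpz), and 0.45 and -0.10 (plp1b).

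The ratios of the other 5 were all under 0.5 in size. They were 0.18 within the wild type and -0.21 within the mutant for apoeb, -0.41 and 0.0891 for the globin gene ba1, -0.47 and 0.29 for the keratin gene krt94, 0.22 and -0.24 for pgrmc1, and -0.0703 and 0.0270 for snap25a. In snap25a and mbpa the counts are so high that the counting interval leaves out 0 even for very small ratios.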

How the results depend on the processing

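The counts of calls moved with the fit. Without a filter there were 69 female-higher and 63 male-higher calls, with a robust fit 2 and 4, and without the genotype term 0 and 1, the 1 being si:ch211-281l24.3. The DESeq2 Wald test gave 23 and 14 calls. Leaving out 1 library, without the genotype term, gave between 0 and 60 female-higher and between 1 and 18 male-higher calls, with the most when the mutant female was left out, and with 1 and 5 when the wild-type female was left out. With the muscle list and the 3 sarcomere genes not counted, a choice made after the calls were seen, 3 female-higher calls were left. All 28 calls remained with total counts, and 24 with DESeq2 size factors. No paired analysis was possible because the labels give no replicate numbers that pair libraries.

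Genes 2-fold in both genotypes numbered 203 (female higher) and 303 (male higher) without a filter and 34 and 30 at a mean of at least 50 counts, and 328 and 358 at 1.5-fold and 22 and 20 at 4-fold. Leaving out 1 library leaves 1 genotype pair, in which 370 to 731 genes were higher and 610 to 614 were lower in the female. Depth limits the comparison most in the wild-type female, and genes with few counts in the females have wide intervals.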
